A study of Homo sapiens with 12 samples.

Results

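The 7 subunits of respiratory complex I that are encoded in the mitochondrial genome were measured in HaCaT, a human keratinocyte line long used as an immortal, non-tumorigenic model of the epidermis. The genes MT-ND1, MT-ND2, MT-ND3, MT-ND4L, MT-ND4, MT-ND5 and MT-ND6 were taken by name from the count tables after their Ensembl identifiers had been matched to symbols, and they are 7 of 61498 entries. All 7 held counts in all 12 libraries and passed the filter on low counts. The cells were 4 derivatives of HaCaT, each expressing a short hairpin RNA: a control hairpin (shControl, given as wild type in the labels), or a hairpin against MLL1, UTX or NRF2. MLL1 (gene KMT2A) adds a methyl mark to histone H3 that is found at active promoters, UTX (gene KDM6A) removes a repressive methyl mark from histone H3, and NRF2 (gene NFE2L2) switches on genes of the antioxidant defence. All 4 derivatives were sequenced untreated, after 24 h with 100 µM hydrogen peroxide (H2O2), and after 24 h with 25 µg/mL cerium oxide nanoparticles (CeO2), with 1 library for each of the 12 combinations. Each target had 1 hairpin derivative, and the labels give neither a second hairpin nor whether a derivative was a clone or a pool. They also do not say whether the libraries came from separate cultures, so p-values measure the spread between these libraries, which may be technical. In the hairpin and agent comparisons this spread also takes in any response to treatment that differs between derivatives, since each combination had 1 library.

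Complex I, the NADH:ubiquinone oxidoreductase, takes electrons from NADH, passes them to ubiquinone and pumps protons across the inner mitochondrial membrane. It is a known site of superoxide formation. The core of its membrane arm is encoded by the mitochondrial genome, and all its other subunits are encoded in the nucleus and imported. MT-ND2, MT-ND4 and MT-ND5 encode the antiporter-like proton-pumping subunits, MT-ND1 encodes the subunit that joins the membrane arm to the arm that oxidises NADH, and MT-ND3, MT-ND4L and MT-ND6 encode small subunits that lie between them. Both strands of the circular genome are transcribed into long precursors, which are cut, mostly at the transfer RNAs, into separate RNAs. Levels of the mature RNAs therefore depend on their processing and stability as well as on transcription.

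The genes lie on the mitochondrial chromosome (MT) of GRCh38, have no introns and were placed with the GENCODE 29 annotation. MT-ND1 spans positions 3307 to 4262, MT-ND2 spans 4470 to 5511, MT-ND3 spans 10059 to 10404, MT-ND4L spans 10470 to 10766, MT-ND4 spans 10760 to 12137 and MT-ND5 spans 12337 to 14148, all on the plus strand. MT-ND6, at 14149 to 14673, is the only member on the minus strand, and its 3′ end abuts that of MT-ND5. In the same order, the entries are ENSG00000198888, ENSG00000198763, ENSG00000198840, ENSG00000212907, ENSG00000198886, ENSG00000198786 and ENSG00000198695. The sequences that follow are from the GENCODE 29 transcripts. MT-ND4L and MT-ND4 share 7 bases and are translated from a single messenger RNA. The junction is shown because reads that cross it overlap both genes, and how such reads were counted is not given. Its capitals mark the 7 shared bases, which hold the start codon of MT-ND4 and the stop codon of MT-ND4L.
MT-ND4L and MT-ND4 junction: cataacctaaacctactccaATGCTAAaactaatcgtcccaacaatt
The complete MT-ND4L gene and the last 150 bases of MT-ND3 (positions 10255 to 10404) follow, since the response of MT-ND4L to exposure differed between derivatives and MT-ND3 had the lowest fitted value after CeO2. The shared bases of MT-ND4L are in capitals, as is the single T that ends MT-ND3.
MT-ND4L: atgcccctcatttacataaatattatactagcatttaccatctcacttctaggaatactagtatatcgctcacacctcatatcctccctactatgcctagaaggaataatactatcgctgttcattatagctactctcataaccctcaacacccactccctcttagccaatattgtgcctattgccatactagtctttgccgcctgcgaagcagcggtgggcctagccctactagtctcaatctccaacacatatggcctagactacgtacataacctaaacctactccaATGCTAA
MT-ND3, end: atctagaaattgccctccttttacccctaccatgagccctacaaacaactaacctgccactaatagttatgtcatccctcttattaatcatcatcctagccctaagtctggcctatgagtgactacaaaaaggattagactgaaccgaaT

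The ends of the other members show how these messages are finished. In human mitochondria the poly(A) tail completes a stop codon that the gene encodes only in part. MT-ND1, MT-ND2, MT-ND3 and MT-ND4 end in this way, and MT-ND4L, MT-ND5 and MT-ND6 encode a whole stop codon. The last 30 bases are given 5′ to 3′ on the coding strand, with the encoded stop bases in capitals.
MT-ND1: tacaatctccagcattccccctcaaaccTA
MT-ND2: ctatctccccttttatactaataatcttaT
MT-ND4: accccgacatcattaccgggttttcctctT
MT-ND5: ctcatcctaaccctactcctaatcacaTAA
MT-ND6: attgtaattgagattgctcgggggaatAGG
MT-ND6 ends in AGG and also differs in composition from the rest. Its coding strand holds 35.6% G and 7.05% C, whereas the plus-strand members hold 9.50% to 12.1% G and 29.5% to 36.0% C.

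The count of each library was 5388335 to 7670446, and 7.41% to 10.0% of it fell on the mitochondrial genome. The 7 members took 1.88% of the counts (95% Wilson interval 1.87% to 1.89%) in the shNRF2 library with CeO2, the lowest, and 2.67% (2.66% to 2.68%) in the shControl library with H2O2, the highest. Such intervals cover counting error only. The entry of KMT2A held 32.8 to 96.4 normalised CPM (counts per 1000000 of the TMM-scaled library size) in the 3 shMLL1 libraries, 472 to 508 in shControl, 299 to 346 in shUTX and 443 to 563 in shNRF2. The KDM6A entry held 0 to 6 counts and the NFE2L2 entry 0 to 16 in all 12 libraries, so neither checks the labels. Many nuclear entries cannot be read by name: 201 entries of a 600-gene panel of ribosomal, respiratory and other general genes were at 0 in every library. None of the cell type markers lay in a stretch of the genome where names could be read, so they check the cell type neither way. Of 8 keratinocyte markers, the entries of KRT5, KRT6A and PERP were at 0, those of TP63, SFN and KRT17 had means of 0.37, 4.11 and 22.8 CPM, and those of KRT14 and DSP had means of 62.1 and 3212 CPM. Of 14 markers of fibroblasts, melanocytes and immune cells, 6 entries were at 0 and none reached 30 CPM. The KMT2A entry also lay outside these stretches, so its low level in shMLL1 is given as measured under that name. The untreated shControl library stood apart from the others: it had the lowest scaling factor (0.914, against 0.968 to 1.04 in the rest), the lowest level of MT-ND4L and the highest levels of MT-ND3 and MT-ND6. For the 7 members, calls that changed when it was left out are given where the fit allows this. Values of other genes and of shares are given with it only.

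Per kilobase of gene, MT-ND4 held the most counts, with a median of 6461 normalised CPM per kilobase over the 12 libraries. This order ranks counts and need not rank messages. MT-ND4L lies on the same message as MT-ND4 but held 0.309 to 0.482 of its counts per base, and the reason was not tested. MT-ND2 followed at 4580 and was below MT-ND4 in 11 of 12 libraries, the exception being the shUTX library with H2O2. MT-ND3 came next at 3123, below MT-ND2 in 12 of 12 libraries. The middle of the order was less firm. MT-ND3 exceeded MT-ND4L (median 2846) in 8 of 12 libraries, MT-ND4L exceeded MT-ND1 (2533) in 8 of 12 and MT-ND1 exceeded MT-ND5 (2358) in 9 of 12. MT-ND6, the minus-strand member, had the lowest median, 1591 normalised CPM per kilobase, and was below MT-ND5 in 11 of 12 libraries. It is not stated whether counting was strand-specific, so reads of MT-ND6 and of RNA antisense to it cannot be told apart. Nuclear copies of mitochondrial sequence may also share reads with any member.

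**Figure D1:**
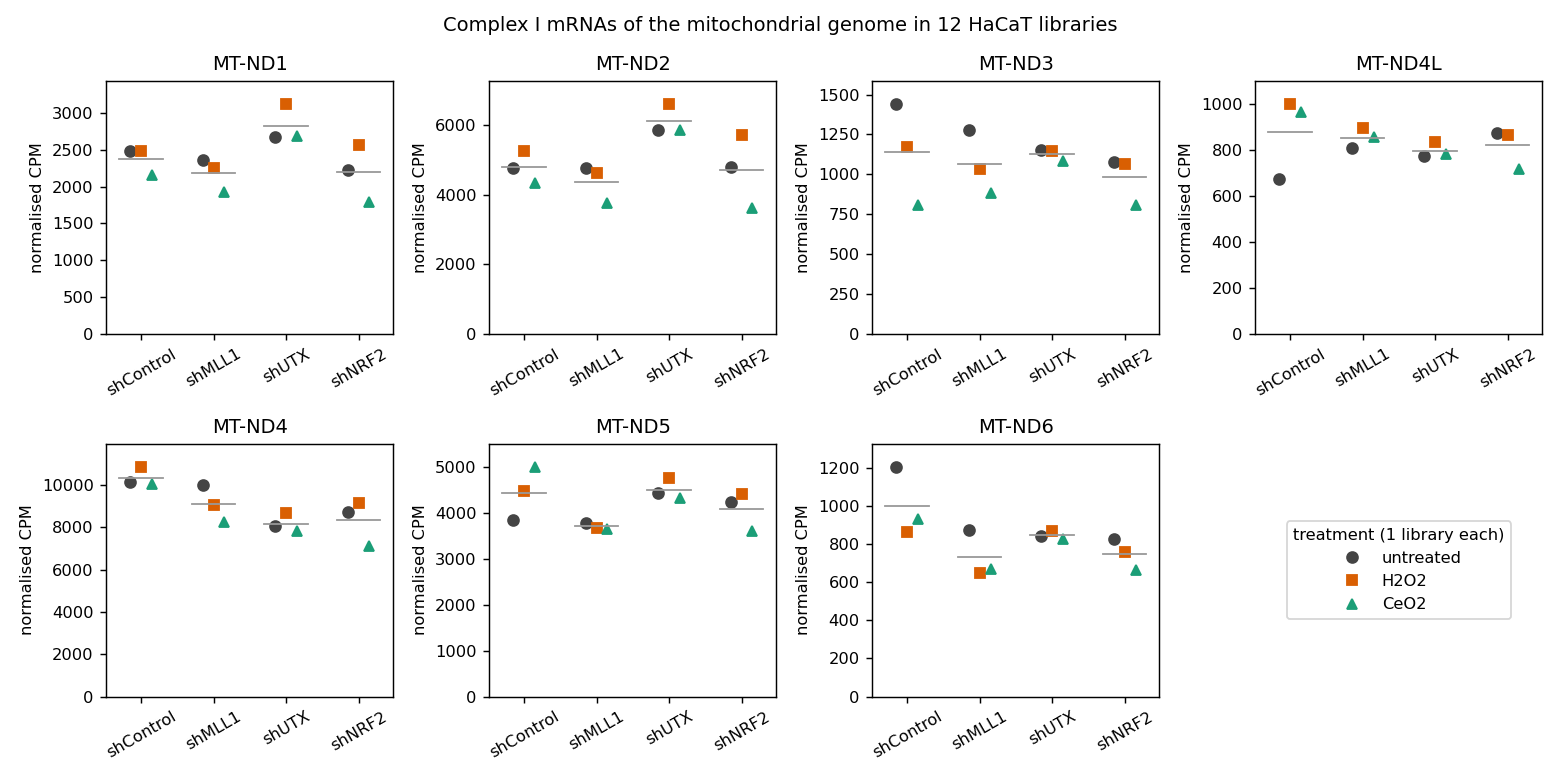
Normalised CPM of each of the 7 genes (y axis, from 0) in the 4 derivatives (x axis). Each symbol is 1 library, with circles for untreated, squares for H2O2 and triangles for CeO2, and the grey line is the mean of the 3 libraries. MT-ND1 and MT-ND2 are highest in shUTX, at 2669 to 3123 and 5862 to 6599, while MT-ND4 is highest in shControl, at 10042 to 10875.

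The members did not vary as a block. The highest library exceeded the lowest by 1.39-fold for MT-ND5 and by 1.86-fold for MT-ND6, and the other 5 lay between. Over the 12 libraries, Pearson's r of log2 CPM between pairs of members ran from −0.30 (MT-ND3 and MT-ND4L) to 0.98 (MT-ND1 and MT-ND2), with a median of 0.46 over 21 pairs. These are descriptions, since the points share libraries and scaling. MT-ND1 and MT-ND2, which are neighbouring protein genes, kept a nearly fixed proportion, with 0.491 to 0.568 reads per base of MT-ND1 for each read per base of MT-ND2. Among the other mitochondrial entries, the 3 most like the mean of the members were MT-RNR2 (r = 0.73), MT-TP (0.67) and MT-RNR1 (0.66), all over 12 libraries.

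The first comparison asked how each hairpin moved the complex I messages across the 3 treatments. Changes are log2 ratios to shControl ± SE from an edgeR model with terms for derivative and treatment over all 12 libraries, and a gene is called where its p, adjusted over all 10800 entries tested, is under 0.05. In shUTX the members split. MT-ND1 and MT-ND2 rose, MT-ND4 fell, and the other 4 did not pass the test, so 3 of 7 were called. The background was high, since 26.3% of all entries were called in this comparison (12.6% higher and 13.7% lower). The median of the 7 members was 0.021 and that of all entries 0.00012. In these bulk libraries, fewer cells that express a message and less of it per cell cannot be told apart.

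MT-ND2, an antiporter-like subunit, was at 5865 normalised CPM untreated, 6599 with H2O2 and 5862 with CeO2 in shUTX. In shControl it was at 4756, 5259 and 4340. Every shUTX library lay above every shControl, shMLL1 and shNRF2 library. The change was 0.36 ± 0.09 (adjusted p = 0.0118), or 1.28-fold, and within each treatment it was 0.30 to 0.43, higher in 3 of 3. MT-ND1, the subunit at the junction of the arms, was at 2669, 3123 and 2694 in shUTX and at 2479, 2486 and 2160 in shControl. These ranges did not overlap either. Together with MT-ND4 below, 3 of 7 members had shUTX and shControl ranges apart, as did 35.4% of all entries. The MT-ND1 change was 0.25 ± 0.09 (adjusted p = 0.0423). The MT-ND1 call was near the threshold and was kept under 9 of 20 other settings (adjusted p from 0.000342 to 0.263). It was lost with RLE scaling (adjusted p = 0.0569), DESeq2 (0.0607), a filter at 5 CPM (0.0695) and in a fit to the 6 compared libraries (0.233). Leaving out any of 7 libraries ended it: the shUTX library with CeO2 (0.17, adjusted p = 0.263) or H2O2 (0.23, 0.176), the shControl library with H2O2 (0.21, 0.155) or CeO2 (0.27, 0.0525), or any of the 3 shMLL1 libraries (0.25, 0.057 to 0.0701). The MT-ND2 call was kept under 18 of 20, and was lost without the shUTX library with CeO2 (0.25, adjusted p = 0.12) and in a fit to the 6 compared libraries (0.35, adjusted p = 0.101).

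MT-ND4, the member with the most counts per kilobase, went the other way. It was at 8052 normalised CPM untreated, 8663 with H2O2 and 7811 with CeO2 in shUTX, and at 10155, 10875 and 10042 in shControl. The groups did not overlap, and MT-ND4 fell by 0.34 ± 0.08 (adjusted p = 0.00649), lower in 3 of 3 treatments by a near equal amount (−0.36 to −0.33). The call was kept under 18 of 20 other settings. It was lost in a fit to the 6 compared libraries (−0.35, adjusted p = 0.104) and with library sizes set to the mitochondrial mRNA total (−0.096, adjusted p = 0.435). That total includes the 7 members, which made up 28.9% to 36.8% of it, so a change shared by the mitochondrial mRNAs is divided out. Here and below, this scaling shows the members relative to mitochondrial mRNA and cannot check a shared change. Under that scaling the median of all entries moved by 0.24, and MT-ND1 (0.50, adjusted p = 0.000342) and MT-ND2 (0.60, adjusted p = 5.7e-05) were called higher. The other plus-strand members had fitted values nearer 0, with MT-ND3 at 0.024 ± 0.11, MT-ND5 at 0.021 ± 0.10 and MT-ND4L at −0.14 ± 0.11. These means join treatments of opposite direction. Untreated, with H2O2 and with CeO2, the ratio to shControl was −0.32, −0.031 and 0.42 for MT-ND3. It was 0.21, 0.090 and −0.21 for MT-ND5, and 0.20, −0.26 and −0.30 for MT-ND4L. MT-ND6 was at −0.22 ± 0.10 (adjusted p = 0.104). Without the untreated shControl library, MT-ND4L was called lower in shUTX as well (−0.31, adjusted p = 0.00243), in a fit that called 3088 of all entries.

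The ratio of MT-ND2 to MT-ND4 within a library does not depend on library scaling. Per base it was 0.963 untreated, 1.01 with H2O2 and 0.992 with CeO2 in shUTX, against 0.619, 0.640 and 0.572 in shControl. In shMLL1 it was 0.630, 0.673 and 0.602, and in shNRF2 it was 0.722, 0.824 and 0.669. All 3 shUTX libraries stood above the other 9, whose highest value was 0.824. The members' share of the mRNA of all 13 mitochondrial protein genes was also higher in shUTX, at 35.2% untreated, 36.8% with H2O2 and 35.1% with CeO2. In shControl that share was 28.9%, 31.6% and 32.1%, in shMLL1 31.1%, 33.6% and 32.1%, and in shNRF2 31.3%, 34.1% and 30.8%.

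**Figure D2:**
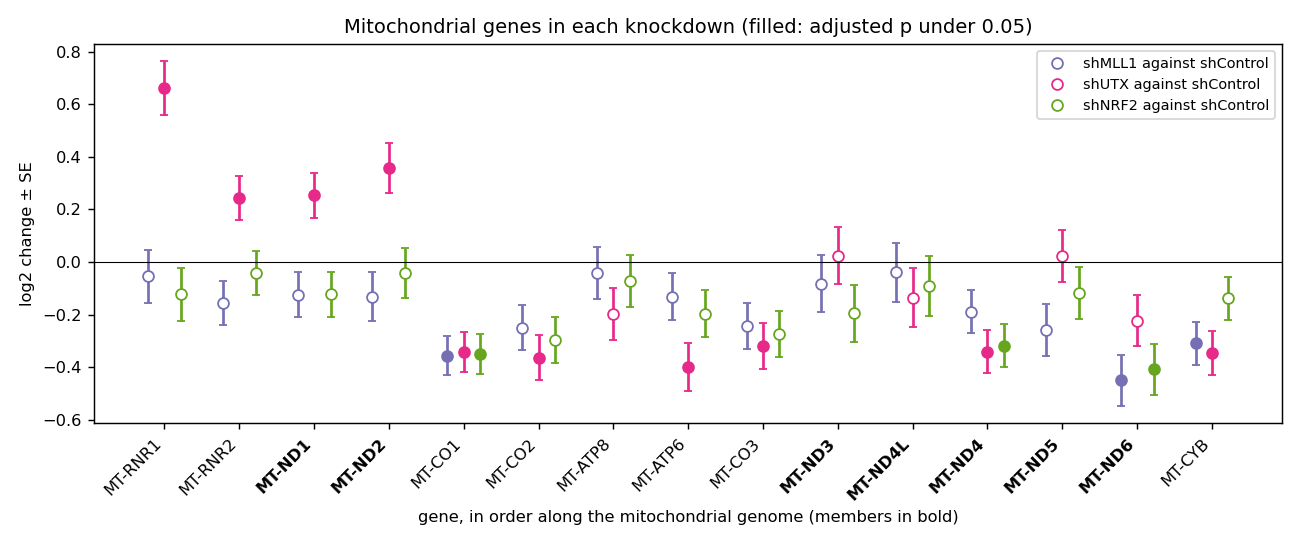
Log2 change ± SE against shControl (y axis) for the 13 protein genes and 2 ribosomal RNA genes of the mitochondrial genome in genome order (x axis, complex I genes in bold), in shMLL1 (violet), shUTX (pink) and shNRF2 (green). Filled symbols have an adjusted p under 0.05. In shUTX the first 4 genes, MT-RNR1 to MT-ND2, are above 0 and filled, and MT-ND4 is filled below 0.

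Other mitochondrial genes moved in both directions in shUTX too. The genes that precede MT-ND1 on the genome, the ribosomal RNAs MT-RNR1 (0.66 ± 0.10, adjusted p = 0.000263) and MT-RNR2 (0.24 ± 0.08, adjusted p = 0.0447), rose with MT-ND1 and MT-ND2. MT-CO1, MT-CO2, MT-CO3, MT-ATP6 and MT-CYB, which encode subunits of the oxidase, the ATP synthase and the cytochrome bc1 complex, fell by 0.32 to 0.40. Thus of the 8 other mitochondrial genes listed, 2 were called higher and 5 lower, with a median of −0.33. With scaling to mitochondrial mRNA, MT-RNR1 and MT-RNR2 were called higher, none of the 8 was called lower, and the median was −0.087. With RLE scaling the MT-RNR2 call was lost.

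In shMLL1 all 7 members were below 0 (median −0.13, against 0.0076 for all entries). With scaling to mitochondrial mRNA, which divides out a fall shared by these messages, 5 of them were above 0. Only MT-ND6 of the 7 was called, against a background of 12.2% of all entries (5.38% higher and 6.84% lower). MT-ND6, the minus-strand member, was at 874 normalised CPM untreated, 649 with H2O2 and 670 with CeO2 in shMLL1, and at 1206, 861 and 933 in shControl. It was lower within each treatment (−0.48 to −0.41), but the ranges overlapped, since untreated shMLL1 stood above shControl with H2O2. MT-ND6 fell by 0.45 ± 0.10 (adjusted p = 0.00636). The call was kept under 18 of 20 other settings and was lost without the shMLL1 library with H2O2 (−0.40, adjusted p = 0.0599) and with scaling to mitochondrial mRNA (−0.20, adjusted p = 0.146).

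MT-ND5 and MT-ND4 did not pass the test in shMLL1 (−0.26 ± 0.10, adjusted p = 0.105, and −0.19 ± 0.08, adjusted p = 0.156), although their ranges lay apart from shControl. MT-ND5 was at 3777, 3677 and 3652 in shMLL1 and at 3832, 4475 and 5003 in shControl. MT-ND4 was at 9998, 9059 and 8237 in shMLL1. Non-overlapping ranges were common, with 24.1% of all entries for this pair. Without the untreated shControl library, 4 members were called lower in shMLL1: MT-ND4L (−0.22), MT-ND4 (−0.25), MT-ND5 (−0.38) and MT-ND6 (−0.39). The background rose too, since that fit called 1941 of all entries, against 1320 with the library kept. Under scaling to mitochondrial mRNA, which moved the median of all entries by 0.25, the median of the members was 0.12 and none of the 7 was called. Of the 8 other mitochondrial genes, MT-CO1 and MT-CYB fell in shMLL1 (−0.36 and −0.31), and neither was called with scaling to mitochondrial mRNA.

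In shNRF2 all 7 members were again below 0 (median −0.12, against 0.015 for all entries), with 5 above 0 under scaling to mitochondrial mRNA. MT-ND4 and MT-ND6 were called lower, against a background of 5.33% of all entries (2.78% higher and 2.56% lower). MT-ND4 was at 8749 normalised CPM untreated, 9161 with H2O2 and 7121 with CeO2, below all 3 shControl libraries. MT-ND6 was at 826, 758 and 663, also below all 3. Ranges lay apart for these 2 of 7 members and for 18.7% of all entries. The changes were −0.32 ± 0.08 for MT-ND4 (adjusted p = 0.0364) and −0.41 ± 0.10 for MT-ND6 (adjusted p = 0.0234). The MT-ND4 call was kept under 9 of 20 other settings, with adjusted p up to 0.643, and was lost without any 1 of 9 libraries (adjusted p from 0.0525 to 0.173). It was kept only without untreated shControl, untreated shUTX or the shUTX library with CeO2. The MT-ND6 call was kept under 16 of 20 and was lost without the untreated shNRF2 library (−0.39, adjusted p = 0.101) or the CeO2 one (−0.36, adjusted p = 0.122). Both were lost with scaling to mitochondrial mRNA, which moved the median of all entries by 0.26, and in a fit to the 6 compared libraries. Without the untreated shControl library MT-ND4L was called lower in addition (−0.28, adjusted p = 0.0235), in a fit that called 747 of all entries. The 3 hairpin comparisons share the shControl libraries, so a direction common to shMLL1 and shNRF2 is not independent.

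Between the knockdowns themselves, the ranges of shMLL1 and shNRF2 overlapped for all 7 members (32.7% of all entries did not overlap). Those of shMLL1 and shUTX lay apart for MT-ND1, MT-ND2 and MT-ND5 (37.5% of all entries), and those of shUTX and shNRF2 for MT-ND1, MT-ND2, MT-ND3 and MT-ND6 (45.1%). The 3 small subunits varied by different amounts within the derivatives. MT-ND3 had a mean of 1128 ± 36.9 normalised CPM (SD, n = 3) in shUTX, 1140 ± 316 in shControl, 1064 ± 200 in shMLL1 and 982 ± 152 in shNRF2. MT-ND6 was at 846 ± 21.0 in shUTX, 999.8 ± 182 in shControl, 731 ± 124 in shMLL1 and 749 ± 82.2 in shNRF2. For MT-ND4L the means were 798 ± 31.4, 882 ± 179, 854 ± 44.4 and 821 ± 88.5 in the same order. The SD was lowest in shUTX for all 3, with shMLL1 close to it for MT-ND4L, and highest in shControl. The other members did not share this order. Their SD was lowest in shControl for MT-ND1, in shMLL1 for MT-ND5 and in shUTX for MT-ND2 and MT-ND4. It was highest in shNRF2 for MT-ND1, MT-ND2 and MT-ND4, and in shControl for MT-ND5. Each SD spans the 3 treatments and so takes in any response to them. That of shControl includes its untreated library, which stood apart for the small subunits. These spreads were not tested.

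The next comparison asked what H2O2, a membrane-permeant oxidant, did to the members across the 4 derivatives. None of the 7 passed the test, and 0% of all entries did by edgeR (2102 of 10800 had an unadjusted p under 0.05, and DESeq2 called 152). The members' values were mixed, with 5 above 0 and 2 below (median 0.085, against 0.016 for all entries). MT-ND4L was at 0.19 ± 0.10 (adjusted p = 0.288), MT-ND2 at 0.13 ± 0.08, MT-ND1 at 0.091 ± 0.07, MT-ND5 at 0.085 ± 0.09 and MT-ND4 at 0.031 ± 0.07. MT-ND6 was at −0.25 ± 0.08 (adjusted p = 0.159), with 3 of 4 derivatives lower, and was the only member with an unadjusted p under 0.05. MT-ND3 was at −0.16 ± 0.09 (adjusted p = 0.347), with 4 of 4 derivatives lower by −0.30 to −0.012. Without the untreated shControl library 3 members were above 0 and 4 below, with MT-ND4L at 0.056, MT-ND3 at −0.086 and MT-ND6 at −0.21. The ranges of untreated and H2O2 libraries overlapped for all 7 members, where 2.97% of all entries lay apart.

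The share of mitochondrial mRNA held by the members was higher with H2O2 than untreated in 4 of 4 derivatives. The rise within a derivative was 2.73 percentage points in shControl, 2.54 in shMLL1, 1.63 in shUTX and 2.80 in shNRF2, a mean of 2.43 ± 0.544 (SD, n = 4). The 4 derivatives are not replicates, and the rises were not tested. Both shControl differences rest on its untreated library, which had the lowest share of all libraries (28.9%). With CeO2 the differences were 3.24, 1.05, −0.11 and −0.53 in the same order, so the derivatives differed in direction. All 8 other mitochondrial genes had values below 0 after H2O2 (−0.15 to −0.010), 5 of them also with scaling to mitochondrial mRNA, and none was called.

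CeO2 nanoparticles carry cerium that cycles between oxidation states and can act on reactive oxygen species. After CeO2 none of the 7 members was called by edgeR, and 0.0185% of all entries were (1888 of 10800 had an unadjusted p under 0.05, and DESeq2 called 44). Unadjusted, 5 members had a p under 0.05. Of the 7 members, 5 had values below 0, with a median of −0.20, against 0.0049 for all entries. MT-ND3, a small subunit at the base of the membrane arm, was at 1441 normalised CPM untreated and 810 with CeO2 in shControl. In shMLL1 it was at 1277 and 881, in shUTX at 1154 and 1086, and in shNRF2 at 1076 and 807. It was lower in 4 of 4 derivatives, but by unequal amounts, from −0.83 in shControl to −0.088 in shUTX, and the range of the untreated libraries overlapped that of the CeO2 libraries, as it did for all 7 members (2.22% of all entries lay apart). The fitted value was −0.47 ± 0.09 (adjusted p = 0.197). MT-ND3 was called by DESeq2 (−0.48, adjusted p = 0.00538), without a filter on low counts, and without the untreated shControl library (−0.39, adjusted p = 0.0338). Of all entries, those fits called 44, 543 and 10 in the same order.

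MT-ND6 was at −0.28 ± 0.08 and MT-ND2 at −0.22 ± 0.08 after CeO2, both lower in 4 of 4 derivatives (adjusted p = 0.197 and 0.227). MT-ND4 was at −0.16 ± 0.07, also lower in 4 of 4, and MT-ND1 at −0.20 ± 0.07, lower in 3 of 4. MT-ND5 (0.019 ± 0.09) and MT-ND4L (0.077 ± 0.10) had values near 0. For MT-ND5 this mean hides 1 derivative, since it was at 3832 untreated and 5003 with CeO2 in shControl and lower with CeO2 in the other 3. The derivatives also differed for MT-ND4L, at 0.52 in shControl, 0.084 in shMLL1, 0.012 in shUTX and −0.29 in shNRF2. Without the untreated shControl library the fitted value of MT-ND4L was −0.060 and that of MT-ND5 −0.074. All 8 other mitochondrial genes were also below 0 (median −0.25), 6 of them with scaling to mitochondrial mRNA, and none was called. Setting library sizes to the mitochondrial mRNA total moved the median of all entries by 0.20 and left the members with a median of −0.0023, with MT-ND3 at −0.27.

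**Figure D3:**
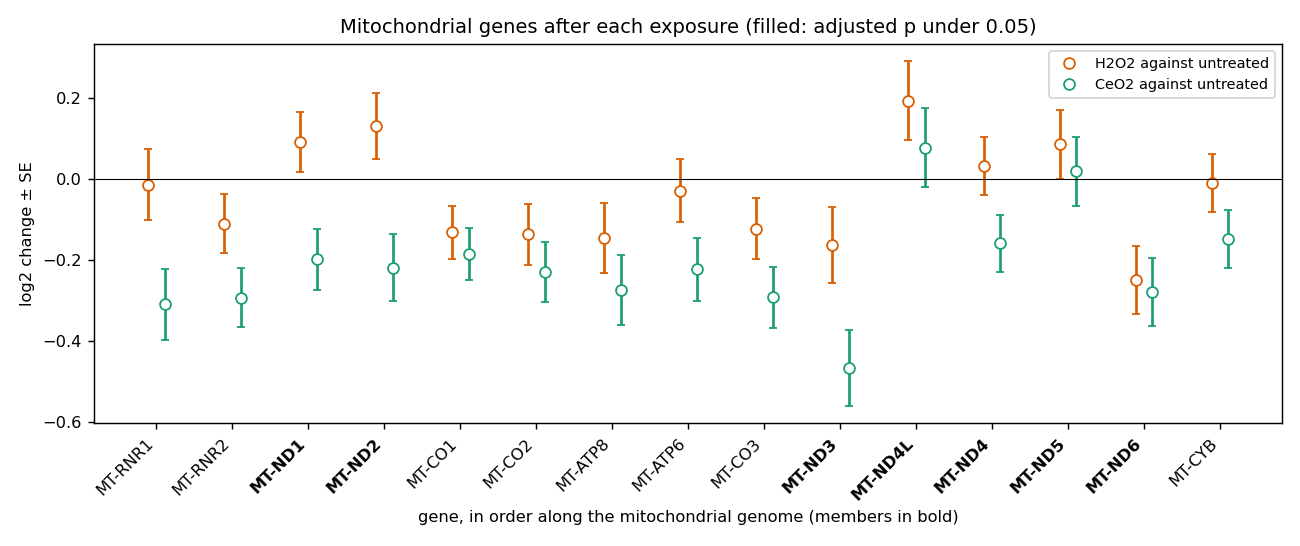
Log2 change ± SE against untreated (y axis) after H2O2 (orange) and CeO2 (green) for the 15 mitochondrial protein and ribosomal RNA genes in genome order (x axis, complex I genes in bold). No symbol is filled, so none had an adjusted p under 0.05. MT-ND3 has the lowest value after CeO2, −0.47.

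Compared directly, CeO2 libraries were below H2O2 libraries for all 7 members (median −0.19, against −0.0020 for all entries), although 3 were above 0 with scaling to mitochondrial mRNA. None passed the edgeR test, and 0.037% of all entries did (670 had an unadjusted p under 0.05, and DESeq2 called 21). Unadjusted, 4 members had a p under 0.05. In shNRF2 the gap was the widest for MT-ND2, at 5707 normalised CPM with H2O2 and 3603 with CeO2. In shControl the same gene was at 5259 and 4340, in shMLL1 at 4607 and 3747, and in shUTX at 6599 and 5862. All 4 derivatives moved the same way, although the groups overlapped, as they did for all 7 members (2.02% of all entries lay apart). The fitted values were −0.35 ± 0.08 for MT-ND2 (adjusted p = 0.24), −0.29 ± 0.07 for MT-ND1 (adjusted p = 0.291) and −0.30 ± 0.09 for MT-ND3 (adjusted p = 0.469). These 3 and MT-ND4L and MT-ND4 were lower with CeO2 in 4 of 4 derivatives. In a fit to the 8 exposed libraries alone, MT-ND1 (adjusted p = 0.00636), MT-ND2 (0.00391) and MT-ND3 (0.009) were called lower, and without the untreated shControl library they were called as well (adjusted p = 0.0206, 0.00751 and 0.0253). Of all entries, the first of these fits called 120 and the second 94. The CeO2 and H2O2 comparisons with untreated cells share the untreated libraries.

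**Figure D4:**
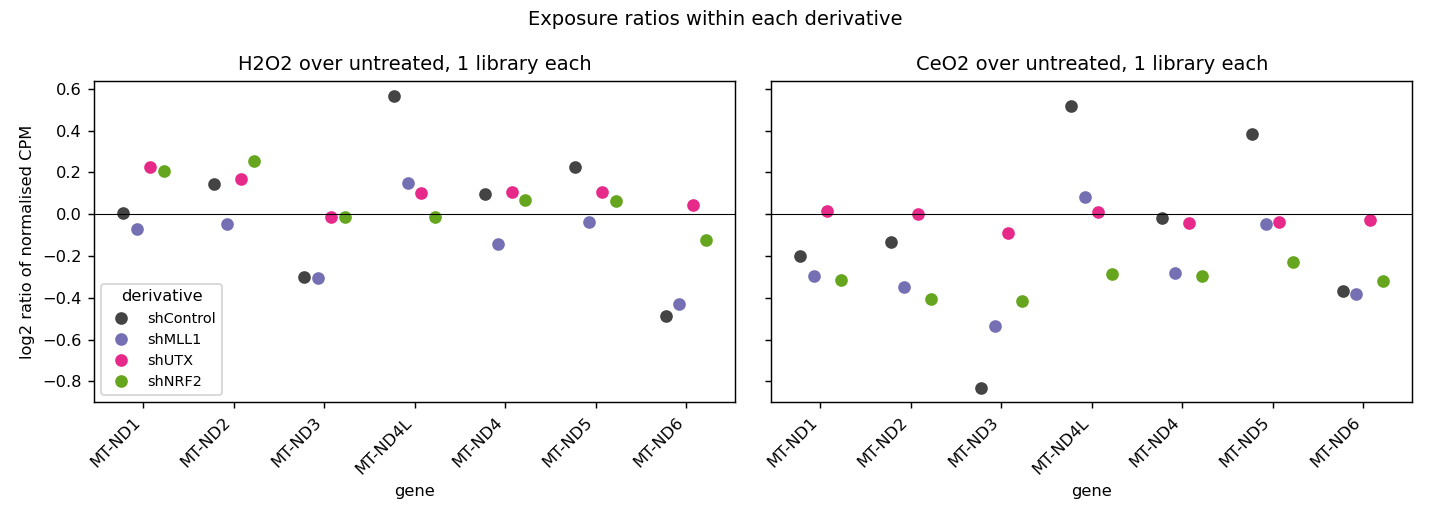
Log2 ratio of normalised CPM of exposed to untreated cells (y axis) for each complex I gene (x axis) within each derivative, for H2O2 (left) and CeO2 (right). Each point is 1 library over 1 library, with no error. For MT-ND4L shControl stands above the others after both agents, at 0.57 and 0.52, and for MT-ND3 after CeO2 it stands below them, at −0.83.

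Whether the response to exposure differed between derivatives was tested with a term for exposure to either agent in each knockdown, an exploratory fit with 3 residual degrees of freedom. It called 3 of 7 members in shUTX, where 14.4% of all entries were called (6.8% higher and 7.59% lower). It called 1 of 7 in shNRF2, where 16.6% were (8.02% higher and 8.59% lower), and 0 of 7 in shMLL1, where 0.648% were (0.38% higher and 0.269% lower) and 3 members had an unadjusted p under 0.05. A positive value means that exposed cells of the knockdown stood higher against their untreated cells than exposed shControl cells did.

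MT-ND4L, the smallest member, gave the 2 calls that were kept under 15 of 15 other settings. In shControl it was at 676 normalised CPM untreated, 1002 with H2O2 and 967 with CeO2. In shNRF2 it was at 877, 868 and 719, in shUTX at 777, 834 and 783, and in shMLL1 at 808, 897 and 856. It was thus higher after both agents in shControl and moved by at most 0.15 upward in any knockdown. The difference in response was −0.69 ± 0.12 in shNRF2 (adjusted p = 0.000605), −0.49 ± 0.12 in shUTX (adjusted p = 0.00934) and −0.43 ± 0.12 in shMLL1 (adjusted p = 0.0816). In shMLL1 the difference was −0.47 without the shControl library with H2O2 and −0.38 without the one with CeO2. Each of these fits keeps only the other exposed shControl library, and each called more of all entries in shMLL1 than the full fit.

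MT-ND3 and MT-ND6 differed in the opposite direction in shUTX. MT-ND3 was at 1441 untreated, 1169 with H2O2 and 810 with CeO2 in shControl, and at 1154, 1144 and 1086 in shUTX. The difference in response was 0.52 ± 0.14 (adjusted p = 0.0189), and it was lost without the shUTX library with CeO2 (0.37, adjusted p = 0.122) and with scaling to mitochondrial mRNA (0.39, adjusted p = 0.126). MT-ND6 was at 1206, 861 and 933 in shControl and at 843, 869 and 827 in shUTX, a difference of 0.43 ± 0.13 (adjusted p = 0.0254) that was kept under 10 of 15 settings. It was lost without either exposed shUTX library (adjusted p = 0.0872 and 0.0605), without either exposed shMLL1 library (0.0517 and 0.0522) and with scaling to mitochondrial mRNA (0.241). MT-ND5 in shNRF2 did not pass (−0.39 ± 0.14, adjusted p = 0.0574), although it did with limma-voom (adjusted p = 0.0347). The MT-ND5 difference in shNRF2 was −0.54 without the shControl library with H2O2 and −0.54 without the shNRF2 library with H2O2. Without the shControl library with H2O2, the difference of MT-ND5 was −0.50 in shMLL1 and −0.43 in shUTX, and that of MT-ND3 was 0.50 in shNRF2. That fit keeps only the other exposed shControl library and called more of all entries in every knockdown than the full fit. All these differences rest on the untreated shControl library, the only one of its kind, which cannot be left out of this fit, and its part in them was not tested.

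Ratios within libraries showed the same library apart. Per base, MT-ND4L stood at 0.309 of MT-ND4 in the untreated shControl library and at 0.375 in the untreated shMLL1 library, and between 0.427 and 0.482 in the other 10. Although both coding sequences lie on the same message, the ratio was not constant. MT-ND6 stood at 1.09 of MT-ND5 in untreated shControl and 0.799 in untreated shMLL1, and at 0.592 to 0.674 in the other 10. MT-ND3 per MT-ND4 was at 0.565 untreated, 0.428 with H2O2 and 0.321 with CeO2 in shControl, and at 0.571, 0.526 and 0.553 in shUTX.

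**Figure D5:**
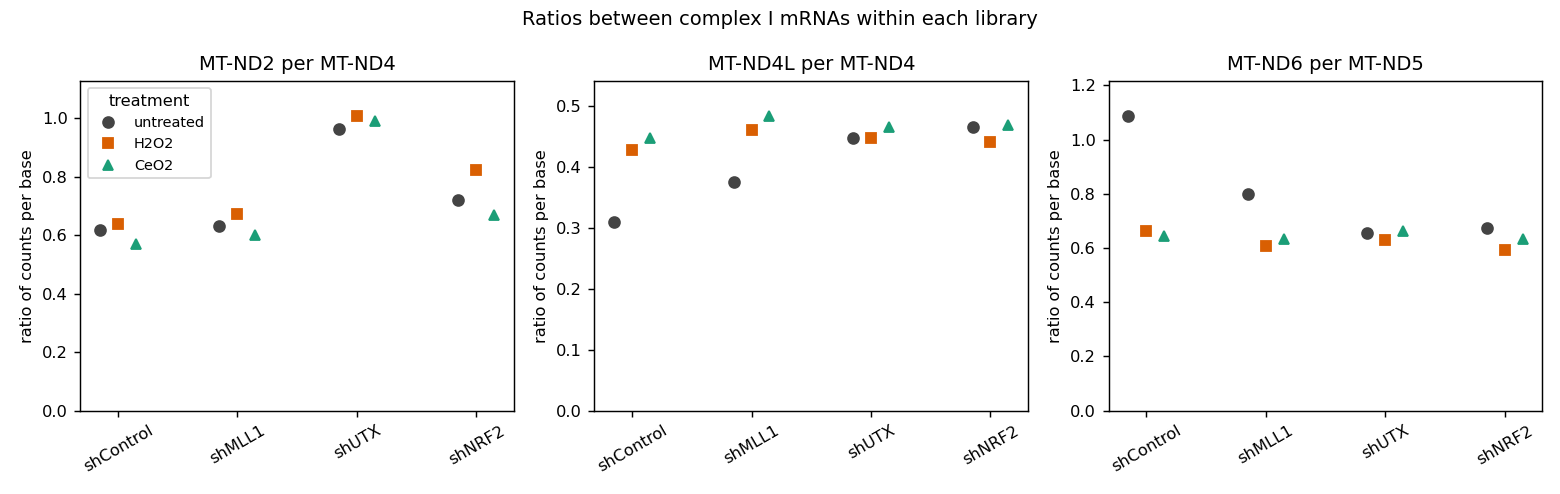
Ratio of counts per base within each library (y axis, from 0) for MT-ND2 to MT-ND4, MT-ND4L to MT-ND4 and MT-ND6 to MT-ND5 in the 4 derivatives (x axis), with 1 symbol per library. The 3 shUTX libraries lie at 0.963 to 1.01 in the first panel, and the untreated shControl library is lowest in the second (0.309) and highest in the third (1.09).

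The nuclear partners could be read only in part. Of 37 nuclear complex I subunits listed, 13 held no count and 4 lay in chromosome stretches where the panel genes held counts: NDUFS7, NDUFS6, NDUFA11 and NDUFB6. None of 20 assembly factors could be read. NDUFS6, a subunit of the arm that oxidises NADH, fell in shMLL1 (−0.58 ± 0.14, adjusted p = 0.0116), and no other value of these 4 genes passed the test for a hairpin or an agent. In the fit of changed responses all 4 were called higher in shUTX (0.73 to 0.84) and in shNRF2 (0.68 to 0.98), and NDUFS7 in shMLL1 (0.68). As with MT-ND3 and MT-ND6, the untreated shControl library had the highest value of all 12 for each of the 4 (287 normalised CPM for NDUFS7, 218 for NDUFA11, 206 for NDUFB6 and 429 for NDUFS6). Of 23 genes of mitochondrial transcription and RNA maintenance, FASTKD3 alone could be read. FASTKD3 belongs to a family of mitochondrial RNA-binding proteins, and it rose in shUTX (0.57 ± 0.08, adjusted p = 0.000116).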

How the data were processed

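Total RNA of 12 HaCaT libraries (TruSeq RNA-seq kit, per the labels' protocols) was sequenced by the authors. The submitters' processing notes name HTSeq 0.11.1, HISAT2 2.2.1, Trimmomatic 0.39, SAMtools 1.12 and the GRCh38 build. Settings, annotation and strand use: not given in the sources used here. What the authors deposited is raw read counts per Ensembl gene in 2 tables. Both hold the untreated libraries with equal counts except for 1 value of no member, and the table with H2O2 was used for them.

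Of 61498 identifiers, 61399 matched a symbol and 58298 GENCODE 29, the source of coordinates and sequences. Entries reaching 1 CPM in 3 or more libraries (10800) were scaled by TMM and fitted with edgeR 4.0.16 in R 4.3.3 (quasi-likelihood, two-sided, Benjamini-Hochberg adjustment over all 10800, threshold 0.05). The additive model had 6 residual degrees of freedom. SE is the log2 change divided by the square root of F. The other settings were RLE scaling, library sizes set to mitochondrial mRNA, no filter, a filter at 5 CPM, DESeq2 1.42.0, limma-voom (limma 3.58.1), leaving out each library in turn, the other table's untreated counts, and fits restricted to the groups compared. The code was tested on counts simulated with the same response in all derivatives. For shUTX against shControl it recovered 73% of 1.5-fold and 100% of 2-fold changes, and 6.5% of its calls were false. For H2O2 against untreated it recovered 86% and 100%, and 2.1% of its calls were false. The largest hairpin change called in a member was 1.37-fold, smaller than any simulated. Nuclear complex I, assembly and RNA genes were read by name only in 4 chromosome stretches where genes of general use held counts (at least 3 panel genes, 30 CPM, median of at least 150 CPM). The panel includes the nuclear complex I genes, so their being read is no separate check. The targeted genes and the cell type markers lay outside the stretches, and their entries are given only as a description. Intervals of shares are Wilson intervals at 95%.

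All 7 members are named with their values, as are the 3 mitochondrial entries most like their mean. Members, lists and tests were chosen with earlier results of these data known.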

Additional observations from a re-analysis of the deposited data

Results flagged for a closer look

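Of 35 groups of 4 values, 3 held a value far from the rest by Dixon's ratio (above its 95% critical value), which chance gives in about 5% of groups. MT-ND2 in untreated cells stood at 5865 normalised CPM in shUTX, far above the other 3 derivatives. MT-ND6 in untreated cells stood at 1206 normalised CPM in shControl, far above the knockdowns. The log2 ratio of H2O2 to untreated for MT-ND4 was −0.14 in shMLL1 and above 0 in the other 3 derivatives.

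Responses to exposure that differed from the shControl response by the test of the difference were those of MT-ND4L in shNRF2 (−0.69), MT-ND4L in shUTX (−0.49), MT-ND3 in shUTX (0.52) and MT-ND6 in shUTX (0.43). All 4 share the 3 shControl libraries.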

How the results depend on the processing

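Of 1155 values of members under other settings, 1025 kept their direction and side of the threshold, 39 lost a call, 36 gained one and 55 changed sign, 32 of the latter with a library left out. Scaling to mitochondrial mRNA turned the sign of log2 changes in shMLL1 for MT-ND1 (0.12), MT-ND2 (0.12), MT-ND3 (0.17), MT-ND4L (0.21) and MT-ND4 (0.059), in shUTX for MT-ND4L (0.12) and MT-ND6 (0.020), and in shNRF2 for MT-ND1 (0.13), MT-ND2 (0.21), MT-ND3 (0.061), MT-ND4L (0.16) and MT-ND5 (0.14). It also did so for MT-ND4 after CeO2 (0.037), for MT-ND4L (0.025), MT-ND5 (0.077) and MT-ND6 (0.12) in CeO2 against H2O2, and for the changed response of MT-ND1 in shMLL1 (0.070) and MT-ND2 in shUTX (−0.047). In shUTX the 5 CPM filter gave −0.0057 for MT-ND3 and −0.0095 for MT-ND5. The changed response of MT-ND6 in shMLL1 was −0.0063 with no filter, and that of MT-ND4 in shUTX was 0.017 with RLE scaling and 0.017 with DESeq2. Scaling to mitochondrial mRNA replaces the library size, so it moves all entries by a near equal amount. The median of all entries moved by 0.25 in shMLL1, 0.24 in shUTX, 0.26 in shNRF2, 0.20 for CeO2 and 0.14 for CeO2 against H2O2. Causes of the other sign changes were not tested.

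The number of members called moved as follows. With no filter it was 3 in shMLL1, 4 in shUTX, 1 for H2O2, 3 for CeO2 and 3 for CeO2 against H2O2. For the changed response no filter gave 3 in shMLL1, 4 in shUTX and 2 in shNRF2. RLE scaling, the 5 CPM filter and DESeq2 each gave 2 in shUTX, where the fit reported called 3. With scaling to mitochondrial mRNA the number was 0 in shMLL1, 2 in shUTX, 0 in shNRF2 and 1 for the changed response in shUTX. With the compared libraries only it was 0 in shUTX, 0 in shNRF2 and 3 for CeO2 against H2O2. DESeq2 gave 1 for CeO2 and limma-voom 2 for the changed response in shNRF2. Leaving out 1 library at a time gave 0 to 4 in shMLL1, 1 to 4 in shUTX, 0 to 3 in shNRF2, 0 for H2O2, 0 to 1 for CeO2, 0 to 3 for CeO2 against H2O2, and 0 to 2, 1 to 4 and 1 to 3 for the changed response in shMLL1, shUTX and shNRF2.

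Over leave-outs the log2 change ran, in shMLL1, from −0.21 to 0.022 for MT-ND3 and from −0.22 to 0.074 for MT-ND4L, in shUTX from −0.13 to 0.13 for MT-ND3 and from −0.10 to 0.16 for MT-ND5, and in shNRF2 from −0.14 to 0.064 for MT-ND2, from −0.28 to 0.022 for MT-ND4L and from −0.24 to 0.016 for MT-ND5. It ran from −0.013 to 0.081 for MT-ND4 and from −0.0052 to 0.13 for MT-ND5 after H2O2, from −0.060 to 0.17 for MT-ND4L and from −0.083 to 0.095 for MT-ND5 after CeO2, and from −0.17 to 0.0095 for MT-ND5 and from −0.090 to 0.032 for MT-ND6 in CeO2 against H2O2. For the changed response it ran from −0.070 to 0.12 for MT-ND6 in shMLL1, from −0.030 to 0.21 for MT-ND2 and from −0.060 to 0.042 for MT-ND4 in shUTX, and from −0.11 to 0.20 for MT-ND1 and from −0.29 to 0.13 for MT-ND2 in shNRF2.

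Over all entries, the calls with no filter numbered 1438 in shMLL1 (1320 in the fit reported), 907 in shNRF2 (576 in the fit reported), 651 for H2O2, 543 for CeO2, 105 for CeO2 against H2O2, and 218 and 1600 for the changed response in shMLL1 and shNRF2. More entries are tested with no filter, so these counts are not out of 10800. With the compared libraries only they were 1426 in shUTX (2840), 154 in shNRF2, 3 for H2O2, 0 for CeO2 and 120 for CeO2 against H2O2. DESeq2 gave 152 for H2O2, 44 for CeO2, 21 for CeO2 against H2O2, and 676 and 686 for the changed response in shUTX and shNRF2. The 5 CPM filter gave 0 for CeO2 and 33 for the changed response in shMLL1, and limma-voom gave 0 for CeO2. Leave-outs gave 667 to 1941 in shMLL1, 1931 to 3088 in shUTX, 257 to 829 in shNRF2, 0 to 43 for H2O2, 0 to 29 for CeO2, 0 to 94 for CeO2 against H2O2, and 4 to 679, 816 to 2111 and 1317 to 2330 for the changed response in shMLL1, shUTX and shNRF2. The additive model has a term for derivative, so treatments were compared within derivatives. No paired analysis was possible because, beyond that, the labels give no replicate numbers to pair libraries by.

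Depth did not limit the members, which held at least 3801 counts in every library. Each combination of derivative and treatment had 1 library. The additive fits assume that a treatment acts alike in all derivatives, and the fit of changed responses assumes that both agents change the response alike.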

Other observations

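Of the 22 transfer RNA genes of the mitochondrial genome, 19 held no count and MT-TP, on the minus strand, held 832 to 1481 counts in each library. MT-TP was higher in shUTX (0.53 ± 0.09, adjusted p = 0.000758), as were MT-ND1 and MT-ND2. In the fit of changed responses MT-RNR1 was higher in shUTX (0.39 ± 0.13, adjusted p = 0.0398) and in shNRF2 (0.42 ± 0.13, adjusted p = 0.0265), and MT-ATP8 was lower in shNRF2 (−0.39 ± 0.12, adjusted p = 0.0315).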
